A study of Mus musculus with 12 samples.

Results

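The 10 genes described here mark brain endothelial cells or build the blood-brain barrier: Cldn5, Tek, Tie1, Cdh5, Pecam1, Flt1, Kdr, Ocln, Abcb1a and Slc2a1. A gene was taken where a probe set had that gene as its only symbol in the platform annotation. Each of the 10 had exactly 1 such probe set, so that 10 of 19938 single symbols on the arrays were followed and the planned averaging over probe sets left each value as deposited. The arrays measured total RNA from the anterior striata, a reward-related part of the forebrain, of male adolescent Swiss CD-1 mice, an outbred stock. All mice went through a conditioned place preference procedure of 10 days, in which a compartment becomes associated with a drug given 15 minutes before the animal enters it. The 4 groups received mephedrone with ethanol (called the combination), mephedrone, a synthetic cathinone stimulant, ethanol, or saline, with 3 arrays per group. Doses, the hour of collection and whether each array holds RNA of a separate animal are not given in the sources used here. The p-values therefore measure the spread between arrays, which may be technical.

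Brain capillaries differ from those of most organs in that their endothelial cells are sealed by tight junctions and lack fenestrations. Claudin-5 (Cldn5) is the main strand-forming claudin of these junctions, and occludin (Ocln) is a further membrane protein of them. Vessel growth and stability are set by receptor tyrosine kinases, the angiopoietin receptor Tek with its relative Tie1 and the VEGF receptors Flt1 and Kdr. Transport across the wall depends on carriers and pumps such as the glucose transporter GLUT1 (Slc2a1) and the efflux pump P-glycoprotein (Abcb1a). Slc2a1 and Ocln are also made by cells other than endothelium, among them the epithelium of the choroid plexus.

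RefSeq promoters (mouse build GRCm38.p6, 250 bases before to 50 after the start) were found for 8 of the 10 genes. They are shown for 4 genes. Cldn5 and Flt1 were the pair whose values were most alike, and the group means of Slc2a1 ran apart from those of the endothelial receptors. Tek was among the genes whose combination arrays lay below all others. Capitals mark matches to the letters of 5 motifs, searched on both strands.
Cldn5 promoter, chr16:18776597-18776896, plus strand: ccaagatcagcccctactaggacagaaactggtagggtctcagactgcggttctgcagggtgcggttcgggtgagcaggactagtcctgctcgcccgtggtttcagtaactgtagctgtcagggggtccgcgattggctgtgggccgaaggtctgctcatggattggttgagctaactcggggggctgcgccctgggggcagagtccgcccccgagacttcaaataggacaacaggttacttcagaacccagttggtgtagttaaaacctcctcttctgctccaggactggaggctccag
Flt1 promoter, chr5:147725962-147726261, minus strand: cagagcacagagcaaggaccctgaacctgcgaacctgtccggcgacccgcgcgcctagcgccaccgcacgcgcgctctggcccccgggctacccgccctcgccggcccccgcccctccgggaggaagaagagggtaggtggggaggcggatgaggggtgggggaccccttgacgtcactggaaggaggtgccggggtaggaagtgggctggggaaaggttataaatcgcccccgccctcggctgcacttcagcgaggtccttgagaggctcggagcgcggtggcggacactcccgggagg
Tek promoter, chr4:94739039-94739338, plus strand: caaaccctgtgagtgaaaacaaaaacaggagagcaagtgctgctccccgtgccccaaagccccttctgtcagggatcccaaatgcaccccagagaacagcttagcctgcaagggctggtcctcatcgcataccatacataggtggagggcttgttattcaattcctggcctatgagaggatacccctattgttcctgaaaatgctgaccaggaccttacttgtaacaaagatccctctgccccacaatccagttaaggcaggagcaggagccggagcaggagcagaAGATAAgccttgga
Slc2a1 promoter, chr4:119108495-119108794, plus strand: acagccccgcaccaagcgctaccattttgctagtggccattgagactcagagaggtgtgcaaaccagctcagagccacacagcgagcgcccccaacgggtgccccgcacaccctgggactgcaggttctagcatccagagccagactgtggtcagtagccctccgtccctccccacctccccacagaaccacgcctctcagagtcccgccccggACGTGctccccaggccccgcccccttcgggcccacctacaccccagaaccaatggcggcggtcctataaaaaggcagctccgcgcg
The letters CACGTG stood for the E-box, a site of clock factors among others, which 7.15% of all 32851 promoters of that length held and no member window did. None of the 5 motifs was in the windows of Cldn5, Flt1 or Tie1. The Tek window held 1 match to the GATA motif, AGATAA, as did 11.2% of all promoters. The Slc2a1 window held the core of the hypoxia element, ACGTG, which also lies inside the E-box and was in 19.6% of promoters. Kdr and 1 of the 2 Ocln windows held the ETS core CCGGAA, present in 14.9% of promoters. Abcb1a held the TCF/LEF motif CTTTGA at 2 places, and 5257 of the 32851 promoters held it at least once. These matches describe the letters of the windows and nothing about binding.

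Values are log2 differences from the gene's own median over the 12 arrays, so that 0 is the middle array and levels of different genes cannot be compared. Tissue content differed between arrays. A list mean of 12 choroid plexus genes was 1.71 in combination replicate 3, 0.90 in saline replicate 2, 0.66 in ethanol replicate 1, and 0.46 in each of combination replicate 2 and mephedrone replicate 1. It lay between -0.12 and -0.034 in the other arrays. Combination replicate 3 also had 0.82 for cortical excitatory neurons, 0.46 for oligodendrocytes and -0.30 for striatal projection neurons. Ethanol replicate 1 had -0.19 for striatal projection neurons. Because values are centred, they cannot show whether any marker was absent from the tissue. A lower value may mean fewer endothelial cells or less RNA per cell, which cannot be told apart in whole tissue.

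Cldn5 was -0.21, -0.35 and -0.30 in the combination arrays, -0.0069, -0.043 and -0.19 in the mephedrone arrays, 0.18, 0.050 and 0.14 in the ethanol arrays and 0.18, 0.0069 and 0.12 in the saline arrays. All 6 arrays given mephedrone lay below 0 and all 6 others above it, with a narrow gap between -0.0069 and 0.0069. As values are centred on the median, 0 lies in the gap whenever such sets do not overlap. The combination arrays lay below every mephedrone array. Group means were -0.29 ± 0.071 with the combination, -0.081 ± 0.098 with mephedrone, 0.12 ± 0.068 with ethanol and 0.10 ± 0.087 with saline (SD, n = 3 each). The mean of both mephedrone groups was compared with that of the 2 groups without it, which is the mephedrone main effect. Cldn5 fell by 0.30 on the log2 scale (SE 0.044, 95% interval -0.39 to -0.20, 1.23-fold lower, limma adjusted p = 0.0333 over 19938 symbols). In that comparison 0.0301% of symbols passed as lower and 0.115% in either direction, and 0.361% had all 6 arrays given mephedrone below the 6 others. Cldn5 was the 1 member past the test, and the other 9 did not pass. Below 0 were 8 of 10 members (46.8% of symbols), with a median of -0.075 against 0.0038 over all symbols, and 6 had an unadjusted p under 0.05 as lower (4.28% of symbols). The main effect averages the differences with and without ethanol. For mephedrone alone against saline the median was 0.0030, with 5 members above 0 and 5 below.

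**Figure D1:**
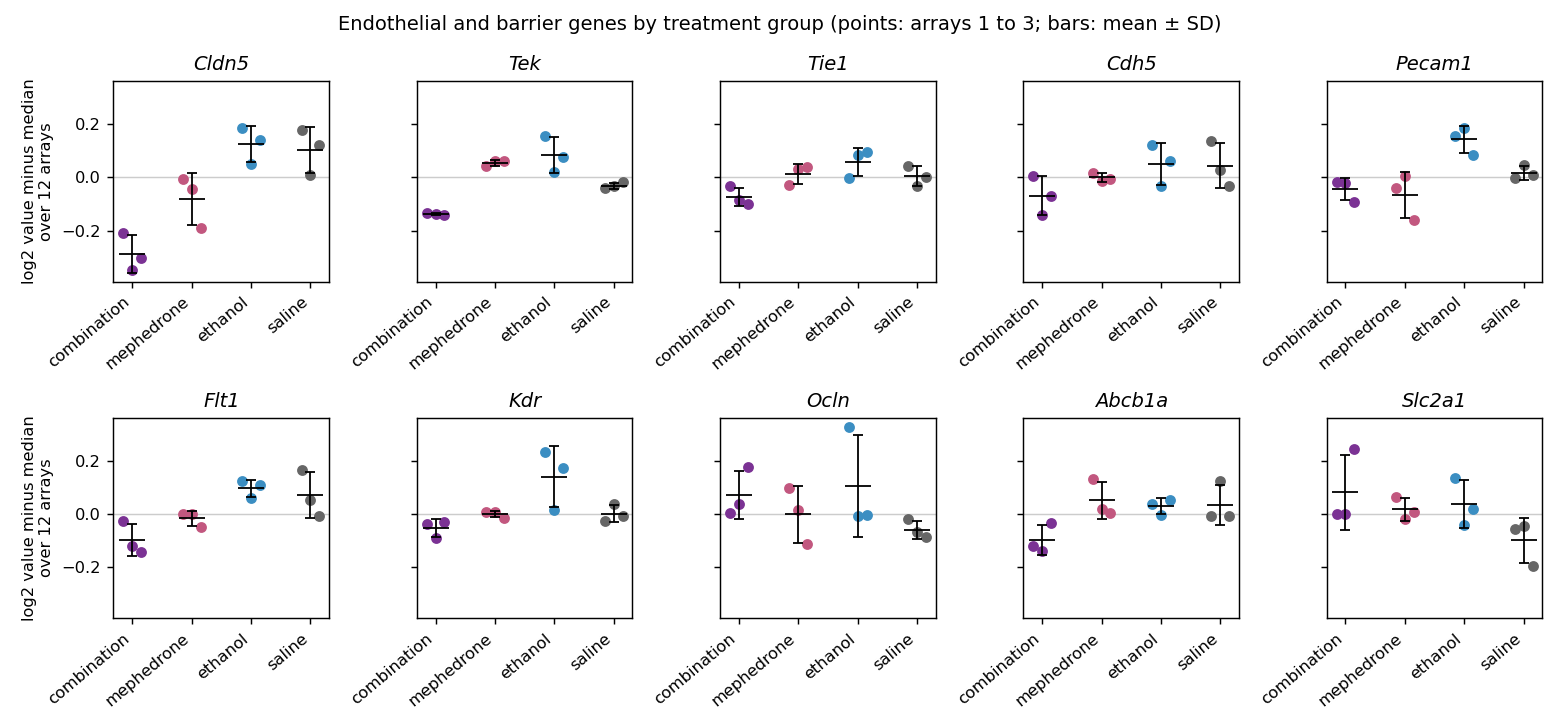
Values of the 10 genes on every array, as log2 value minus the gene's median over 12 arrays (vertical axis), in the combination, mephedrone, ethanol and saline groups (points, arrays 1 to 3 from left to right; bars, mean ± SD). Cldn5 lies between -0.35 and -0.0069 in the 6 arrays given mephedrone and between 0.0069 and 0.18 in the 6 others. In Cldn5, Tek, Tie1, Kdr and Abcb1a the 3 combination arrays lie below all others, by narrow gaps in Tie1 and Kdr. The share of all symbols with that order was not counted.

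The Cldn5 call was close to the threshold. It was lost without combination replicate 1 (adjusted p = 0.0562) or 2 (0.0909), mephedrone replicate 1 (0.0758), 2 (0.0779) or 3 (0.0706), ethanol replicate 2 (0.0697) or 3 (0.0997), and saline replicate 1 (0.0902) or 3 (0.0601). It held without combination replicate 3 (adjusted p = 0.0495), ethanol replicate 1 (0.0410) or saline replicate 2 (0.0290). With the choroid plexus list mean as a covariate the difference was -0.29 (SE 0.045, adjusted p = 0.0372). With quantile normalisation of the arrays it was -0.34 (SE 0.061, adjusted p = 0.0862), and the call was lost. The difference itself stayed between -0.32 and -0.27 when single arrays were left out.

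Between pairs of groups Cldn5 passed in none. It was lower by 0.41 in the combination than with ethanol (SE 0.062, 1.33-fold, adjusted p = 0.0814). Against saline the combination difference was -0.39 (SE 0.062, 1.31-fold, adjusted p = 0.0765), with no overlap between the arrays. The mephedrone group differed from saline by -0.18 (SE 0.062, adjusted p = 0.564) and from ethanol by -0.20 (SE 0.062, adjusted p = 0.617). The combination differed from mephedrone by -0.21 (SE 0.062, adjusted p = 0.992), and ethanol from saline by 0.022 (95% interval -0.12 to 0.16). These comparisons share arrays with each other. The order of the means was thus combination, mephedrone, saline, ethanol from low to high, and saline and ethanol did not differ beyond their spread.

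The angiopoietin receptor Tek, also called TIE2, had a different pattern. Tek was -0.133, -0.140 and -0.142 in the combination arrays, 0.042, 0.061 and 0.062 in the mephedrone arrays, 0.155, 0.019 and 0.077 in the ethanol arrays and -0.042, -0.034 and -0.019 in the saline arrays. The combination arrays lay below all 9 others, as they also did in Cldn5, Tie1, Kdr and Abcb1a. The gaps in Tie1 and Kdr were narrow, and the share of all symbols with that order was not counted. In Tek either drug alone lay above saline without overlap. The difference of the combination from ethanol was -0.22 (SE 0.036, adjusted p = 0.108), from mephedrone -0.19 (SE 0.036, adjusted p = 0.992) and from saline -0.11 (SE 0.036, adjusted p = 0.285). Mephedrone differed from saline by 0.087 (SE 0.036, adjusted p = 0.655) and ethanol from saline by 0.12 (SE 0.036, adjusted p = 0.997). The interaction (combination minus mephedrone, less ethanol minus saline) was -0.31 (SE 0.051, unadjusted p = 7.52e-05, adjusted p = 0.511). None of these passed in limma.

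Tie1, the orphan relative that modulates Tek signalling, had smaller differences. Its values were -0.034, -0.086 and -0.100 in the combination arrays, -0.030, 0.030 and 0.039 in the mephedrone arrays, -0.0022, 0.083 and 0.095 in the ethanol arrays and 0.042, -0.031 and 0.0022 in the saline arrays. The combination arrays were below those of each other group, by a narrow gap from mephedrone and saline. Tie1 differed between the combination and ethanol by -0.13 (SE 0.039, adjusted p = 0.326), with an interaction of -0.14 (SE 0.055, adjusted p = 1.0).

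Of the VEGF receptors, Flt1, which binds VEGF with high affinity and limits its action, resembled Cldn5 with smaller differences. Flt1 was -0.028, -0.12 and -0.14 in the combination arrays, -0.0001, 0.0001 and -0.048 in the mephedrone arrays, 0.12, 0.060 and 0.11 in the ethanol arrays and 0.16, 0.053 and -0.0064 in the saline arrays. The combination and mephedrone arrays lay below every ethanol array, and the combination arrays also below every saline array. The mephedrone main effect was -0.14 (SE 0.034, adjusted p = 0.117) and the combination differed from ethanol by -0.19 (SE 0.048, adjusted p = 0.250). Kdr, or VEGFR2, carries most of the growth signal of VEGF. It was -0.038, -0.092 and -0.030 in the combination arrays, 0.0060, 0.0070 and -0.015 in the mephedrone arrays, 0.23, 0.013 and 0.17 in the ethanol arrays and -0.027, 0.038 and -0.0060 in the saline arrays. In the ethanol group 2 of 3 arrays were above all others in Kdr, and the remaining array, at 0.013, lay among those of saline. The combination arrays lay below all others, by a narrow gap between -0.030 and -0.027. The combination differed from ethanol in Kdr by -0.19 (SE 0.050, adjusted p = 0.273), mephedrone from ethanol by -0.14 (SE 0.050, adjusted p = 0.699), and ethanol from saline by 0.14 (SE 0.050, adjusted p = 0.997). The mephedrone main effects in Tek (-0.068, SE 0.026), Tie1 (-0.062, SE 0.028) and Kdr (-0.098, SE 0.036) had adjusted p-values of 0.287, 0.386 and 0.271.

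The adhesion molecules at endothelial contacts are VE-cadherin (Cdh5), the core of their adherens junctions, and Pecam1, or CD31. Pecam1 was -0.019, -0.022 and -0.091 in the combination arrays, -0.040, 0.0038 and -0.16 in the mephedrone arrays, 0.16, 0.18 and 0.085 in the ethanol arrays and -0.0038, 0.047 and 0.0076 in the saline arrays. Its ethanol arrays were above all 9 others. The mephedrone main effect was -0.13 (SE 0.033, adjusted p = 0.122), mephedrone differed from ethanol by -0.21 (SE 0.047, adjusted p = 0.430), and ethanol from saline by 0.12 (SE 0.047, adjusted p = 0.997). Cdh5 ranged from -0.14 to 0.0055 in the combination, -0.013 to 0.018 with mephedrone, -0.032 to 0.12 with ethanol and -0.032 to 0.14 with saline. The groups overlapped in Cdh5, and its mephedrone main effect was -0.082 (SE 0.038, 95% interval -0.17 to 0.0024, adjusted p = 0.410).

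The barrier genes with further sources did not share the pattern of Cldn5. Ocln was 0.0029, 0.036 and 0.18 in the combination arrays, 0.097, 0.013 and -0.11 in the mephedrone arrays, 0.33, -0.0085 and -0.0029 in the ethanol arrays and -0.021, -0.068 and -0.087 in the saline arrays. Its mephedrone main effect was 0.012 (SE 0.061, 95% interval -0.12 to 0.15, adjusted p = 0.966). Slc2a1 was -0.0011, 0.0011 and 0.24 in the combination arrays, 0.064, -0.018 and 0.0070 in the mephedrone arrays, 0.14, -0.043 and 0.020 in the ethanol arrays and -0.056, -0.047 and -0.20 in the saline arrays. All 9 arrays of the drug groups lay above the saline arrays, with a difference of 0.18 between the combination and saline (SE 0.071, adjusted p = 0.338). Without combination replicate 3 that difference was 0.10 (SE 0.060, adjusted p = 0.672). In both Ocln and Slc2a1 the highest values fell on combination replicate 3 and ethanol replicate 1, where choroid plexus markers were also high (list means 1.71 and 0.66). Saline replicate 2, with a list mean of 0.90, was at -0.068 in Ocln and -0.047 in Slc2a1. The part of tissue content in these values was not tested.

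P-glycoprotein, which pumps drugs back into the blood, is encoded in mice by Abcb1a and its paralogue Abcb1b, of which Abcb1a is the main form in brain endothelium. Abcb1a was -0.12, -0.14 and -0.035 in the combination arrays, 0.13, 0.020 and 0.0035 in the mephedrone arrays, 0.039, -0.0035 and 0.052 in the ethanol arrays and -0.0095, 0.12 and -0.0095 in the saline arrays. The combination arrays lay below all others. The differences were -0.15 from mephedrone (SE 0.049, adjusted p = 0.992), -0.13 from ethanol (SE 0.049, adjusted p = 0.442) and -0.13 from saline (SE 0.049, adjusted p = 0.323), and none passed. Its main effect was -0.055 (SE 0.035, adjusted p = 0.570), and that of Slc2a1 was 0.080 (SE 0.050, adjusted p = 0.568), and 0.040 without combination replicate 3 (SE 0.040, adjusted p = 0.788).

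Across the comparisons the members were described by counts. In the combination against ethanol, 9 of 10 members were below 0 (50.4% of symbols), with a median of -0.16 against -0.0007 over all symbols. No member passed in limma, where 0.0251% of symbols did, and 8 members had an unadjusted p under 0.05 as lower, against 4.41% of symbols. The 3 combination arrays lay below the 3 ethanol arrays in 7 members (Cldn5, Tek, Tie1, Pecam1, Flt1, Kdr and Abcb1a), against 6.78% of symbols. Against saline, the combination arrays were lower without overlap in the same 7 members (5.77% of symbols) and higher in Ocln and Slc2a1 (11.7% of symbols). Below 0 were 8 members (43.0% of symbols), with a median of -0.092 against 0.012 over all symbols, and 0.01% of symbols passed in limma. Both comparisons use the same combination arrays.

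Relative to mephedrone, the combination arrays were lower without overlap in 5 members (Cldn5, Tek, Tie1, Kdr and Abcb1a), against 4.5% of symbols. Below 0 were 7 members, against 48.1% of symbols, with a median of -0.075. Mephedrone relative to ethanol was lower without overlap in Cldn5, Pecam1, Flt1 and Kdr (6.7% of symbols), each with an unadjusted p under 0.05 (6.28% of symbols), and 9 members were below 0 (52.5% of symbols). In these comparisons and in all others but the mephedrone main effect no member passed in limma. For the combination against mephedrone 4 members had an unadjusted p under 0.05, all as lower, as did 3.31% of symbols in either direction. For the combination against saline 5 members did, 4 as lower and 1, Slc2a1, as higher, as did 12.1% of symbols in either direction.

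Mephedrone alone against saline gave a median of 0.0030, with 5 members above 0 and 5 below (44.0% of symbols). An unadjusted p under 0.05 was reached by 2 members, Cldn5 as lower and Tek as higher, and by 7.23% of symbols. Without overlap Cldn5 was lower (4.74% of symbols) and Tek and Slc2a1 were higher (9.99% of symbols). The ethanol group differed from saline by a median of 0.085, against 0.011 over all symbols, with 9 of 10 members above 0 and 1, Abcb1a, below it at -0.0050 (41.1% of symbols). Its arrays lay above the saline arrays in Tek, Pecam1, Ocln and Slc2a1, against 6.1% of symbols, and 3 members (Tek, Pecam1 and Kdr) had an unadjusted p under 0.05, against 4.98%. The Ocln difference of 0.16 (SE 0.086) was 0.053 (SE 0.065) without ethanol replicate 1.

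The interaction was below 0 in all 10 members, as in 55.5% of symbols, from -0.31 in Tek to -0.074 in Slc2a1. The values for Cldn5 and Kdr were -0.23 (SE 0.088) and -0.19 (SE 0.071). An unadjusted p under 0.05 was found in Cldn5, Tek, Tie1 and Kdr, against 3.54% of symbols, and no symbol passed after adjustment in limma. The ethanol main effect likewise gave no call, with -0.092 in Cldn5 (SE 0.044), 0.073 in Pecam1 (SE 0.033) and -0.077 in Abcb1a (SE 0.035). The last 2 had an unadjusted p under 0.05, as did 4.57% of symbols. In the F test for any difference among the 4 groups the smallest adjusted p was 0.168, for Cldn5. There 7 members had an unadjusted p under 0.05, against 8.35% of symbols, and none passed after adjustment, where 0.00502% of symbols did.

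**Figure D2:**
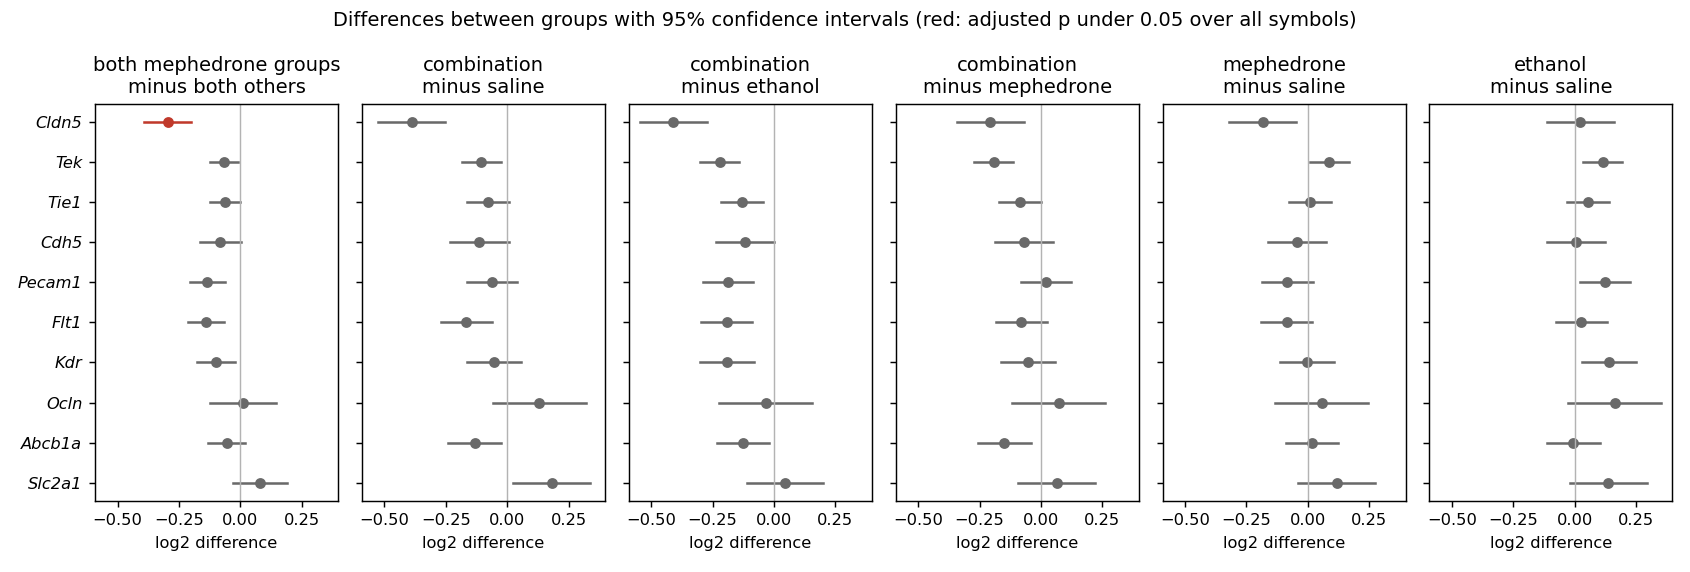
Log2 differences (horizontal axes) of the 10 genes with 95% confidence intervals for 6 comparisons, each given as the first-named group minus the other. Red marks an adjusted p under 0.05, which Cldn5 alone reached, at -0.30 for both mephedrone groups against both others. The other intervals of Cldn5 that involve mephedrone lie below 0, and that for ethanol minus saline runs from -0.12 to 0.16.

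The genes also differed in how they varied together over the 12 arrays, which share their treatment groups and their tissue content. Pearson correlations are given as descriptions. Among the 8 members other than Ocln and Slc2a1, a split made after the values were seen, the 28 correlations ran from 0.21 to 0.92 with a median of 0.62. Cldn5 and Flt1 had 0.92, Flt1 and Cdh5 0.89, and Tek and Kdr 0.77. Once each group's mean was taken out, those 28 ran from -0.63 to 0.86 with a median of 0.15. Cldn5 and Flt1 then had 0.66, Flt1 and Cdh5 0.86, and Tie1 and Abcb1a -0.63. Ocln and Slc2a1 correlated with each other at 0.77, and at 0.73 with group means taken out. Their correlations with the 8 had a median of 0.02, and with group means taken out one of 0.37, above the 0.15 among the 8. Slc2a1 with Cldn5 was at -0.36, and at 0.11 with group means taken out, and Ocln with Cldn5 at 0.04 and at 0.49.

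**Figure D3:**
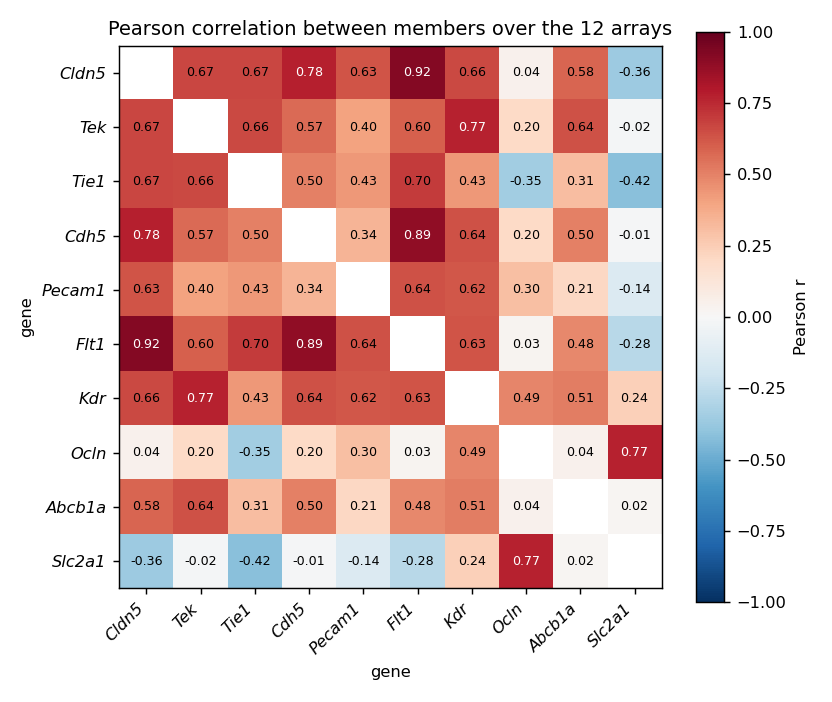
Pearson correlations between the 10 genes over the 12 arrays (rows and columns are genes, colour and printed number are r). Ocln and Slc2a1 correlate with each other at 0.77 and with Cldn5 at 0.04 and -0.36, values that become 0.73, 0.49 and 0.11 once group means are taken out, which is not drawn.

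Of all symbols, the one most like Cldn5 was Flt1 (r = 0.92), followed by Arntl, the clock activator BMAL1 (0.91), and Mir670hg (0.90). Arntl was itself lower by 0.46 in the mephedrone main effect (SE 0.049, adjusted p = 0.0110). Because Arntl was picked for its likeness to Cldn5, that difference adds no separate evidence. Tek was most like Ap1s3 (0.89), the vasoconstrictor gene Edn1 (0.85) and the endothelial sialomucin gene Emcn (0.84). The nearest symbols were Zglp1 for Tie1 (0.94), Numa1 for Cdh5 (0.91), Gpr63 for Pecam1 (0.86), Rnf44 for Flt1 (0.96) and Nol4 for Kdr (0.92). For Abcb1a it was the endothelial receptor gene Adgrl4 (0.88), for Ocln Spast (0.95), and for Slc2a1 Slc7a10, an amino acid transporter (0.96). These are the highest of 19938 values per member, and nothing further was read from them.

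Other genes of the vessel wall were followed through lists. The mephedrone main effect was below 0 in 14 of 20 other pan-endothelial genes, which had a median of -0.024 against 0.0038 over all symbols. None passed in limma, and 6 had an unadjusted p under 0.05, as did 12.6% of symbols. The smallest p-values belonged to Eng, a TGF-beta co-receptor, at -0.14 (SE 0.033, adjusted p = 0.117) and Icam2 at -0.16 (SE 0.045, adjusted p = 0.152). In the combination against ethanol 15 of 20 were below 0 with a median of -0.068, and Emcn was at -0.31 (SE 0.069, adjusted p = 0.216) and Cyyr1 at -0.19 (SE 0.045, adjusted p = 0.240). List means ran from -0.054 to -0.016 in the combination, -0.022 to 0.024 with mephedrone, 0.027 to 0.082 with ethanol and -0.031 to 0.062 with saline.

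Cldn5 was also set against that list on each array. Cldn5 minus the list mean was -0.17, -0.29 and -0.29 in the combination arrays, 0.015, -0.067 and -0.19 in the mephedrone arrays, 0.13, 0.023 and 0.057 in the ethanol arrays and 0.12, 0.038 and 0.15 in the saline arrays. All 6 arrays given mephedrone lay below the 6 others on this scale too, with a narrow gap between 0.015 and 0.023. The list mean ran only from -0.054 to 0.082 over the arrays, against -0.35 to 0.18 for Cldn5. Subtracting it could therefore change the order of the arrays little, and nothing about endothelial content was read from it. In a fit with the list mean as a covariate, chosen after the data were seen, the mephedrone main effect on Cldn5 was -0.25 (SE 0.054, adjusted p = 0.410), and the call was lost. Over all symbols 1 was called in that fit, in place of 23.

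Tight and adherens junction genes other than the members did not follow Cldn5 as a group. For both mephedrone groups against both others, 12 of the 19 measured were above 0 and 7 below, and their median was 0.018. Cldn12, another claudin, was at -0.15 (SE 0.032, adjusted p = 0.0899) and Ctnnb1, which encodes beta-catenin, at 0.11 (SE 0.037, adjusted p = 0.222). The 20 other barrier transporters were split into 10 above and 10 below 0, with a median of 0.0091. Fabp5, a fatty acid carrier, was at 0.18 (SE 0.054, adjusted p = 0.186) and Slc6a6, the taurine transporter, at 0.10 (SE 0.034, adjusted p = 0.235).

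Among ligands and co-receptors of the VEGF and angiopoietin systems, 8 of 11 were below 0 with a median of -0.020. Vegfa, the main ligand of Kdr and Flt1, was at -0.16 (SE 0.034, adjusted p = 0.0795). Vegfc, the lymphatic ligand, was at -0.073 (SE 0.029, adjusted p = 0.322). The WNT pathway that induces the barrier had 9 of 16 genes above 0 and a median of 0.0074. Tspan12, a co-receptor of Norrin signalling, was at 0.16 (SE 0.035, adjusted p = 0.0937) and Tnfrsf19 at -0.074 (SE 0.021, adjusted p = 0.152). Of the 7 genes of endothelial activation and fenestration, 4 were above 0, and Plvap, the diaphragm protein of fenestrated vessels, was at -0.11 (SE 0.049, adjusted p = 0.383). No gene of these 5 lists passed in limma in that comparison.

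**Figure D4:**
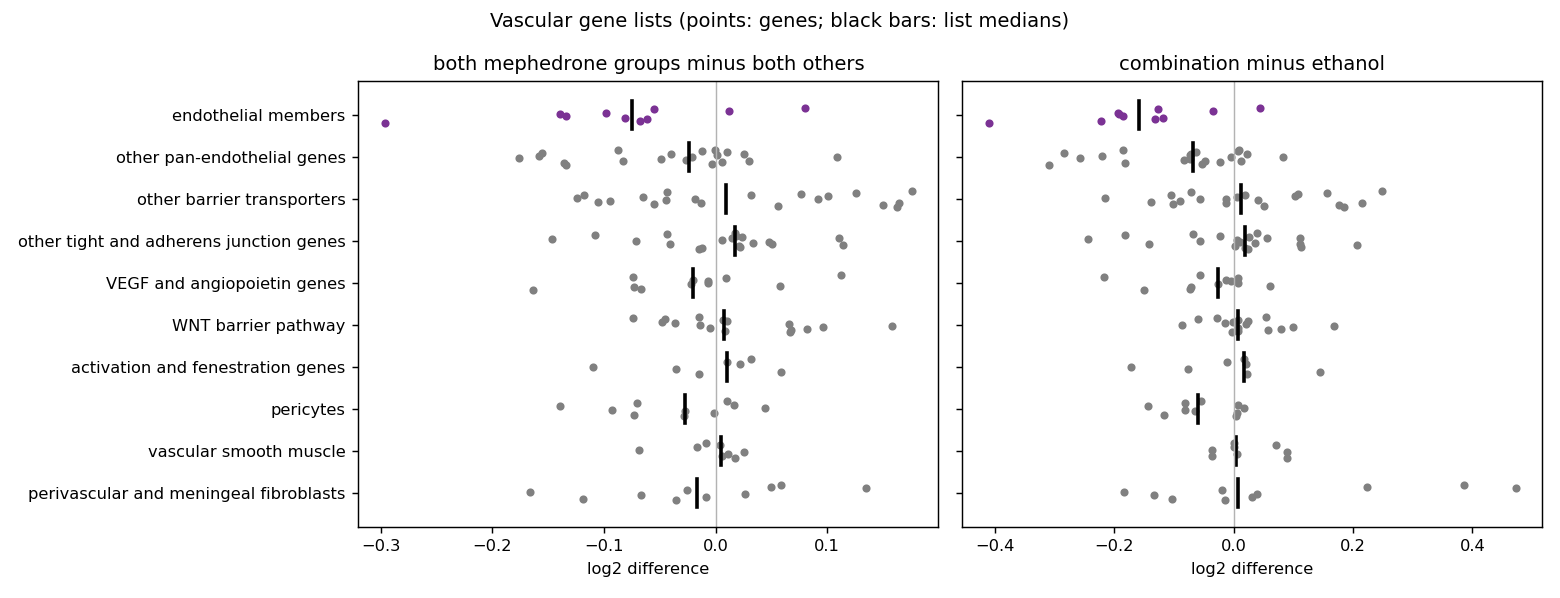
Log2 differences (horizontal axes) of single genes (points) and list medians (black bars) for the 10 genes (purple) and 9 lists of vascular genes, for both mephedrone groups minus both others and for the combination minus ethanol. Medians of the 10 genes are -0.075 and -0.16, and those of the other pan-endothelial genes -0.024 and -0.068.

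Cells around and beside the endothelium were read in the same way. For the same contrast 7 of 10 pericyte genes were below 0, the median was -0.028, and Vtn was at -0.14 (SE 0.043, adjusted p = 0.188). Cspg4 was at -0.093 (SE 0.033, adjusted p = 0.260), with all 6 arrays given mephedrone below the others, as in 0.361% of symbols. Smooth muscle genes had a median of 0.0046 and perivascular fibroblast genes one of -0.017. All 9 microglial genes were below 0, with a median of -0.077, and list means ran from -0.10 to 0.011 in the combination, -0.064 to 0.013 with mephedrone, 0.032 to 0.11 with ethanol and -0.035 to 0.10 with saline. Alas2, the erythroid enzyme of haem synthesis, was at -0.16 (SE 0.036, adjusted p = 0.0937) with no overlap between the 6 arrays given mephedrone and the others, and Slc4a1, the red cell anion exchanger, at -0.025 (SE 0.037). Of the neuronal lists, all 7 cortical excitatory genes were above 0, with a median of 0.31 and list means from -0.12 to 0.82 in the combination, -0.098 to 0.37 with mephedrone, -0.59 to 0.20 with ethanol and -0.42 to 0.39 with saline. Striatal projection neuron genes had a median of -0.026. None of these genes passed in limma. The part of neuronal, microglial or blood cell content in the Cldn5 difference was not tested.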

How the data were processed

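The authors deposited 1 table of log2 values for 28853 probe sets on 12 arrays. Per the submitters' processing notes the arrays were processed with RMA and the genome build was mm8, and GeneSpring GX 7.3.1 is named in the series' design text. The values are centred on each probe set's median over the 12 arrays (0 within 7e-07), a step read from the table. Depth has no meaning for arrays, and their number limits the precision. No array was left out.

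Platform annotation gave 1 symbol to 21789 probe sets, for 19938 symbols, several to 1621 and none to 5443. Probe sets were averaged per symbol. A model of the 4 group means on all 12 arrays was fitted by limma 3.58.1 under R 4.3.3 (lmFit, eBayes, 8 residual and 3.43 prior degrees of freedom, two-sided), with Benjamini-Hochberg adjustment over 19938 symbols and a threshold of 0.05. Errors are SE of the fit unless given as SD. The fit was run on simulated data with independent noise, which cannot show how it behaves where symbols share tissue content on an array.

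The 10 genes and the 17 lists (188 of 204 symbols matched) were chosen with earlier results of these data known. All members are described. No gene of the other lists passed the test, and those named from them had the smallest unadjusted p of their list in that comparison. Some lists are given by medians or array means alone, and the astrocyte and ependyma lists are not described. For likeness the symbols with the highest Pearson r are named. Alternatives were leave-one-out fits, a replicate block, single probe sets, quantile normalisation, array weights, a robust prior, the compared arrays alone, covariates, and leaving out 2 arrays that stood apart. The replicate numbers were not taken as pairs.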

Additional observations from a re-analysis of the deposited data

Results flagged for a closer look

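For each of the 10 genes, the 6 arrays given mephedrone and the 6 others were searched for an array lying far from the rest of its set, by Dixon's gap criterion at its 95% critical value. Among the 20 sets searched, 2 were found, and chance gives about 1 in 20. Slc2a1 was 0.24 in combination replicate 3, far above the other 5 arrays given mephedrone. Ocln was 0.33 in ethanol replicate 1, far above the other 5 arrays not given it. These arrays had choroid plexus list means of 1.71 and 0.66. In saline replicate 2, with a list mean of 0.90, Ocln was -0.068 and Slc2a1 -0.047. Whether choroid plexus content bears on Slc2a1 and Ocln was not tested. The interaction was tested in every member and passed in none.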

How the results depend on the processing

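Of 66 gene differences followed over up to 21 alternatives, 53 kept their direction and their side of the threshold throughout. The mephedrone main effect on Cldn5 was -0.30 and ran from -0.32 to -0.27 without single arrays, where the call was lost in 9 of 12 fits. It was also lost with quantile normalisation (-0.34, 0 members called) and with the other pan-endothelial list mean as covariate (-0.25, 0 members called), chosen after the data were seen. Without single arrays 0 to 1 members were called in that comparison. Against ethanol the combination gave 0 to 1 members without single arrays, Cldn5 being called without saline replicate 1 (-0.41, adjusted p = 0.0459). With array weights it gave 2, Cldn5 (-0.39, adjusted p = 0.0344) and Tek (-0.20, adjusted p = 0.0307).

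By the replicate numbers in the titles, the deviations of 18 same-numbered pairs correlated between -0.28 and 0.43, and 7 were above 0.1. Those of 36 pairs with different numbers ran from -0.434 to 0.395, and 13 were above 0.1. The medians were 0.027 and 0.026. Because deviations cancel out within each group, these correlations cannot decide whether same-numbered arrays belong together. With a replicate block the Cldn5 main effect was -0.30 (SE 0.035, adjusted p = 0.0421), no member's call changed, and symbols called in that comparison numbered 6 in place of 23. Symbols called numbered 2 to 86 without single arrays, 10 with quantile normalisation, 38 with the choroid plexus covariate, 68 as single probe sets, 213 without both arrays that stand apart, 356 with array weights and 1 with the pan-endothelial covariate. For the combination against ethanol 5 symbols were called, and 0 to 37 under the alternatives, and against saline 2, and 0 to 6.

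Sign changes occurred in 10 differences, none of them called. Ocln in the mephedrone main effect ran from -0.0167 to 0.067 without single arrays and was -0.0118 with the choroid plexus covariate. For the combination against ethanol Ocln ran from -0.0907 to 0.077 without single arrays, with 0.0068 by array weights, 0.025 without both arrays and 0.0211 with the pan-endothelial covariate. Slc2a1 there ran from -0.0378 to 0.0924, with -0.0286 with the choroid plexus covariate. For the combination against mephedrone Pecam1 ran from -0.0259 to 0.0566 and Slc2a1 from -0.0174 to 0.1051 without single arrays. With the choroid plexus covariate Ocln was -0.0067 and Slc2a1 -0.0227, and Slc2a1 was -0.0174 without both arrays. For mephedrone against saline the ranges were -0.0093 to 0.0299 in Tie1, -0.0824 to 0.0014 in Cdh5, -0.0167 to 0.0158 in Kdr and -0.0226 to 0.0606 in Abcb1a, and Kdr was 0.0042 with the choroid plexus covariate. The causes were not tested.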
